A study of Mus musculus with 6 samples.

Results

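The SIBLING genes encode secreted, acidic, heavily phosphorylated proteins of bone and dentin, and the enamel matrix genes are their relatives that are used in tooth enamel. The 7 genes described here, chosen by name and matched by symbol among the 55487 gene IDs of the count table, were the SIBLING genes Spp1 (osteopontin), Dmp1 (dentin matrix protein), Ibsp (bone sialoprotein), Mepe (matrix extracellular phosphoglycoprotein) and Dspp (dentin sialophosphoprotein), and the enamel genes Ambn (ameloblastin) and Enam (enamelin). All 7 were found. These genes and the lists below were chosen with earlier results of these data known. Shares set beside those of all genes are therefore descriptions, not tests. Of these, 5 passed the filter of at least 10 counts summed over the libraries and were tested. Dspp and Enam fell below it and are given by their counts only.

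RNA-Seq had been performed by the authors on rib cages of mouse embryos at 16.5 dpc (days post coitum), to ask which genes respond when both Foxc1 and Foxc2 are deleted in chondrocyte progenitors. The 3 control embryos (E420, E434 and E435) are labelled wild type, and the 3 mutant embryos (E423, E433 and E440) are labelled Col2-cre;Foxc1-/-;Foxc2-/-. Deletion relied on a Cre transgene driven from Col2 sequences, which the study found active in growth plate chondrocytes, perichondrium and the primary ossification centre of the hind limb. Rib cage cells in which the transgene was never active keep both genes. Mothers in the study's crosses carried floxed Foxc1 and Foxc2, the background was a mix of C57B6 and Black Swiss, and animals compared were littermates, but the labels do not say which embryos shared a litter. Embryos of such mothers inherit floxed alleles, so the wild type label need not mean unmodified genes. For its skeletal preparations the study describes controls as lacking the transgene. Where that holds here, effects of the transgene itself and of the deletion cannot be told apart. RNA came from whole dissected tissue, so that fewer cells of a type and less RNA per cell cannot be told apart in any value below.

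SIBLING proteins are laid down in the collagen matrix of bone and dentin. They bind calcium and hydroxyapatite through phosphoserines and runs of acidic residues, and cells attach to them through integrins. Osteopontin is made by osteoblasts, hypertrophic chondrocytes, osteoclasts and macrophages and holds back crystal growth, bone sialoprotein is made by osteoblasts and can seed hydroxyapatite, and DMP1 is made mostly by maturing osteoblasts and osteocytes. MEPE belongs to late osteoblasts and osteocytes. DSPP serves dentin, while ameloblastin and enamelin are secreted by ameloblasts, the enamel-forming epithelium of the tooth.

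Library totals ran from 37853988 to 47794799 counts. Values per library are listed as E420, E434, E435 for controls and as E423, E433, E440 for mutants, so that the middle value of each group is its cartilage-rich embryo, described below. Levels are given in CPM, counts scaled by TMM to a common library size, in which 1 count was worth between 0.0206 and 0.0254 CPM. The targeted genes went with the labels. Foxc1 had 23.1, 36.9 and 24.2 CPM in control libraries and 3.56, 9.60 and 3.51 CPM in mutant libraries, and Foxc2 had between 1.98 and 4.83 CPM in control libraries and between 0.649 and 1.14 CPM in mutant libraries. The libraries did not stand equally far apart. Controls E420 and E435 were close to each other, as were mutants E423 and E440. Over genes with at least 200 fragments in the pair, the SD of the log2 ratio was 0.140 and 0.116 for these 2 pairs and between 0.457 and 1.48 for the other 13 pairs. Chi-square per gene was 6.72 and 2.52 for the close pairs, above the value of 1 for sampling noise alone, which repeat preparations of one RNA could also exceed. Each library carries its own embryo number in the labels and was kept as a sample. With the counts of the close libraries summed, edgeR called 0 genes (769 at an unadjusted p under 0.05). The remaining embryo of each group was rich in cartilage RNA. Summed over 12 early chondrocyte markers, E434 had 23208 CPM against 1695 and 1593 CPM in the other controls, and E433 had 8524 CPM against 611 and 582 CPM in the other mutants. Mutant E433 also had 587 CPM summed over 6 hepatocyte markers, where the other 5 libraries had at most 45.8 CPM. Keratinocyte markers summed to 11.3 CPM in E434, to between 3037 and 5823 CPM in E420, E435 and E433, and to 26881 and 27018 CPM in E423 and E440. The part of these differences in the results below was not tested beyond the values given without E433 or E434 and with the early chondrocyte level as a covariate. Without E433 the mutant group is the close pair E423 and E440 alone, so calls of that fit rest on the small spread within that pair. The covariate includes Sox9, Sox6 and Col2a1, which the study found reduced in mutant rib cage RNA by qRT-PCR. It may thus hold part of the effect of the deletion, and the fit with it cannot separate that effect from cartilage content.

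Among the SIBLING genes, the 3 that were abundant in control ribs, Spp1, Dmp1 and Ibsp, had each mutant library below all control libraries, Spp1 and Dmp1 by over 5-fold in the fitted means and Ibsp by 1.89-fold. Mepe overlapped between the groups and was, on average, higher in mutants. Ambn was present at a low level in the controls and nearly absent in mutants. A gene was called when edgeR's quasi-likelihood test gave a p-value under 0.1 after Benjamini-Hochberg adjustment across the 26596 genes tested, and when it changed by at least 1 on the log2 scale in either direction. Of the 5 genes tested, 1 was called, Ambn, against a background of 0.0301% of genes called lower, and 0 were called higher (background 0.0338%). An unadjusted p under 0.05 with a lower level was found for 4 of the 5, and for 4.7% of all genes. Ambn passed the filter on low counts only through its control libraries. Among the 5 genes tested, 4 (Spp1, Dmp1, Ibsp and Ambn) had every mutant library below every control library, where 8.21% of all genes tested did. Ambn is counted in each of these shares, so they are not free of that filter.

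Spp1 (ENSMUSG00000029304.14, chr5:104435118-104441050, plus strand, GRCm38) encodes osteopontin. It had 437, 499 and 469.7 CPM in control libraries and 119, 27.3 and 124 CPM in mutant libraries. Every mutant lay below every control, with the lowest control 3.54-fold above the highest mutant, and E433 lay 4.45-fold below the mean of the other mutants. The group means were 469 ± 31.1 CPM (SD, n = 3) for controls and 90.0 ± 54.4 CPM (SD, n = 3) for mutants, so the controls varied by 6.63% of their mean. By edgeR's quasi-likelihood test the log2 fold change was -2.38 (standard error 0.535) at an unadjusted p = 0.00353 and an adjusted p = 0.303, and the gene was not called. Without mutant E433 it was -1.94 (standard error 0.0925, adjusted p = 0.00111) and the gene was called. With the early chondrocyte level as a covariate it was -2.89 (adjusted p = 0.0807), also called. Gm42793, a gene that overlaps Spp1 on the same strand, had between 3 and 16 counts per library, and how reads of the shared stretch were divided was not tested.

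Dmp1 (ENSMUSG00000029307.7, chr5:104202613-104214102, plus strand) encodes a protein of the osteocyte lacuna that acts in phosphate balance. Its level was 51.8, 40.9 and 49.1 CPM in control libraries and 10.8, 3.80 and 10.2 CPM in mutant libraries. The lowest control was 3.78-fold above the highest mutant, and E433 was again lowest, 2.77-fold below the mean of the other mutants. Means were 47.2 ± 5.70 CPM (SD, n = 3) for controls and 8.28 ± 3.89 CPM (SD, n = 3) for mutants. The log2 fold change was -2.51 (standard error 0.389, unadjusted p = 0.000463, adjusted p = 0.155 by edgeR's quasi-likelihood test), short of the limit. The gene was called without mutant E433, at a log2 fold change of -2.16 (adjusted p = 0.0021), and with the covariate, at -2.88 (adjusted p = 0.0115). Without the cartilage-rich control E434 neither gene was called, at -2.33 for Spp1 (adjusted p = 0.325) and -2.61 for Dmp1 (adjusted p = 0.207).

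Ibsp (ENSMUSG00000029306.8, chr5:104299171-104311469, plus strand) encodes bone sialoprotein, a marker of the mineralizing osteoblast. It had 923, 887 and 967 CPM in control libraries and 619, 247 and 605 CPM in mutant libraries. Control libraries varied by 4.31% of their mean (coefficient of variation), and the lowest of them was 1.43-fold above the highest mutant. The means were 926 ± 39.9 CPM (SD, n = 3) and 490.1 ± 211 CPM (SD, n = 3), with a fitted log2 change of -0.92 (standard error 0.336, unadjusted p = 0.0312, adjusted p = 0.434 by edgeR's quasi-likelihood test). Without mutant E433 the log2 fold change was -0.59 (standard error 0.0862, adjusted p = 0.0251), which met the limit on the p-value but not the one on size.

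Mepe (ENSMUSG00000053863.3, chr5:104325329-104338611, plus strand) was nearly absent. It had 10, 14 and 7 counts in control libraries and 28, 8 and 23 counts in mutant libraries. The groups overlapped through E433, while the other mutants lay above all controls. Means were 0.236 ± 0.0838 CPM (SD, n = 3) for controls and 0.452 ± 0.247 CPM (SD, n = 3) for mutants, and the value of 0.94 on the log2 scale (standard error 0.550, adjusted p = 0.583 by edgeR's quasi-likelihood test) was not called, nor was it without E433 (1.31, adjusted p = 0.125). Dspp (ENSMUSG00000053268.7, chr5:104170712-104180127, plus strand) had 0, 2 and 2 counts in control libraries and 0 counts in every mutant. A count of 0 allows up to 3 counts, between 0.0650 and 0.0722 CPM in the mutant libraries, and up to 6 counts where both ends of a fragment are counted, so that no difference in Dspp was detectable at this depth.

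The enamel genes were near the floor of detection. Ambn (ENSMUSG00000029288.11, chr5:88455991-88468531, plus strand) had 26, 21 and 39 counts in control libraries and 2, 1 and 1 counts in mutant libraries. Every control library held over 20 counts and no mutant library more than 2, and the control mean was 0.643 ± 0.171 CPM (SD, n = 3). Summed over libraries and scaled by TMM, 86 counts in controls against 4 in mutants gave a ratio of 21.1, with an exact 95% counting interval from 7.96 to 79.3, or from 5.50 to 180.03 if every fragment was counted at both ends. This interval holds no spread between embryos. edgeR's quasi-likelihood test called the gene with an adjusted p = 0.0956. The call did not hold when E420, E434, E435, E423 or E440 was left out in turn (adjusted p between 0.109 and 0.511) and held without E433 (adjusted p = 0.0211). Enam (ENSMUSG00000029286.12, chr5:88487975-88506049, plus strand), which lies beside Ambn, had 4, 0 and 4 counts in control libraries and 0 counts in each mutant. The tooth epithelium markers Amelx and Mmp20, the main enamel protein and its protease, were at 0 counts in all 6 libraries, and the list of 5 such markers summed to at most 0.243 CPM in any library.

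**Figure D1:**
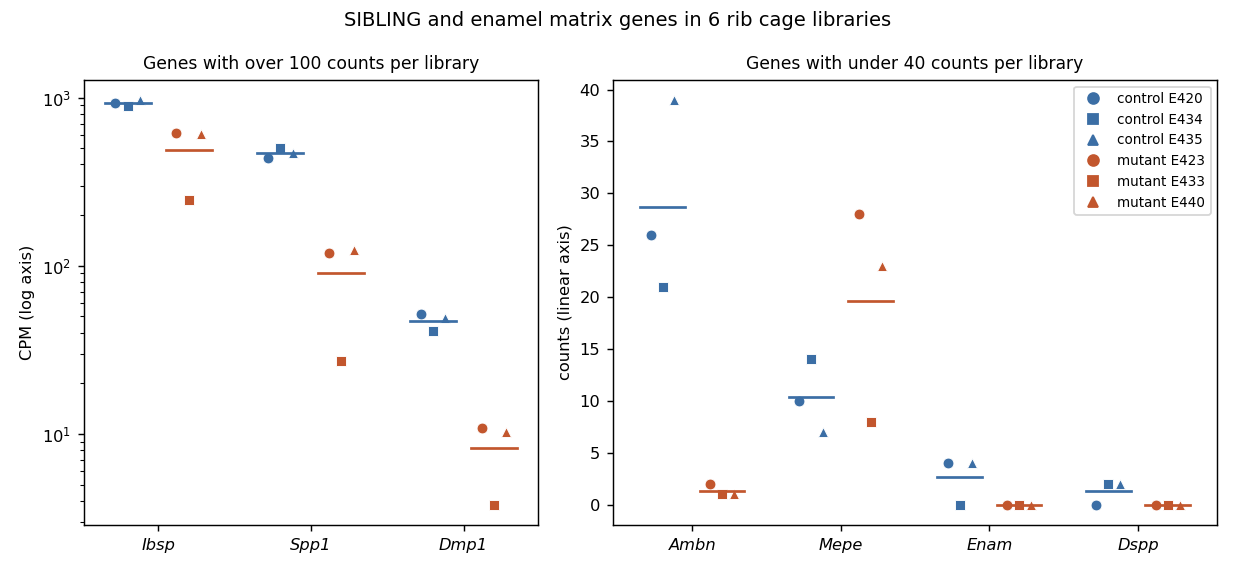
Levels of the 7 genes by library, with CPM on a log axis (left) and counts on a linear axis (right), controls in blue, mutants in orange, one symbol per embryo and a line at the group mean. Mutant E433 (orange square) is lowest for Ibsp, Spp1 and Dmp1, at 247, 27.3 and 3.80 CPM, and Ambn has at most 2 counts in a mutant against at least 21 in a control.

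Run on the same counts, DESeq2's Wald test called 3 of the 5 genes tested: Spp1 (log2 fold change -2.37, adjusted p = 0.00941), Dmp1 (-2.50, adjusted p = 1.67e-10) and Ambn (adjusted p = 0.000174). DESeq2 called 0.459% of all genes lower and 1.33% higher, so its share of these genes stands against a wider background. Ibsp had a log2 fold change of -0.91 (adjusted p = 0.0806) by DESeq2, short of the limit on size, and Mepe had an adjusted p = 0.640. Leaving out mutant E433 gave 3 genes called by edgeR as well, against 1.37% of all genes called lower in that fit, and the covariate gave 3 against 0.267%. The mutants of the fit without E433 were the close pair only, and the standard error of Spp1 was 0.0925 there against 0.535 with all libraries. With the close libraries summed, 0 of these genes were called.

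The size of the difference was not alike in the 3 mutants. Spp1 was 3.93-fold below the control mean in E423, 3.79-fold in E440 and 17.2-fold in E433. For Dmp1 the same values were 4.37-fold, 4.61-fold and 12.4-fold. Ibsp was 1.5-fold below the control mean in E423, 1.53-fold in E440 and 3.75-fold in E433. In the close pair of mutants Ibsp was nearest to its control mean and Dmp1 farthest from it, and all 3 genes were lowest in the cartilage-rich mutant. Col1a1, the main collagen of bone, did not follow this pattern, being 1.56-fold, 1.51-fold and 1.65-fold below its control mean in E423, E433 and E440. Sp7, the osteoblast regulator osterix, was lowest in E433, at 3.47-fold below the control mean against 2.34-fold in E423 and 2.06-fold in E440. E433 was the lowest mutant library for 8 of 10 osteoclast markers, 5 of 9 osteoblast markers and 3 of 7 hypertrophic chondrocyte markers, and the highest mutant library for 1, 4 and 4 of them. Among those lowest in E433, Acp5, the tartrate-resistant phosphatase that acts on osteopontin, was 7.94-fold below the control mean in E433 and 1.08-fold and 1.12-fold below it in E423 and E440. Mmp13, the collagenase of late hypertrophic chondrocytes and osteoblasts, was 47.8-fold below in E433 and 5.84-fold and 5.43-fold below in E423 and E440. Col10a1, the collagen of hypertrophic cartilage, was instead highest in E433 among mutants, at 126 CPM against 75.6 and 73.6 CPM in E423 and E440. The part of these cell types in the low SIBLING levels of E433 was not tested.

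Levels between genes were compared per kilobase of exon (RPKM, from the counts and exon lengths). In controls the order was Ibsp at 448 ± 19.3 RPKM, Spp1 at 284 ± 18.9 RPKM and Dmp1 at 17.1 ± 2.06 RPKM (SD, n = 3 each), followed by Ambn at 0.335 ± 0.0891 RPKM and Mepe at 0.140 ± 0.0498 RPKM. Ranges of neighbours in this order did not overlap. Enam, at up to 0.0185 RPKM, and Dspp, at up to 0.00996 RPKM, came last and could not be ordered. The ribs of a control embryo thus held a pair of highly expressed SIBLING genes, with Ibsp ranked 93 and Spp1 ranked 167 by RPKM among 32757 genes with a count in any control, a moderately expressed one (Dmp1, ranked 3486), and 4 genes near the floor. In mutants the order was Ibsp (237 ± 102 RPKM, rank 230), Spp1 (54.6 ± 33.0 RPKM, rank 1158), Dmp1 (3.0 ± 1.41 RPKM, rank 11219), Mepe (0.269 ± 0.147 RPKM) and Ambn (0.0161 ± 0.00773 RPKM), so Mepe and Ambn changed places. The authors' TPM values from RSEM gave the same order of the 3 abundant genes, with 683 ± 17.8, 526 ± 39.9 and 27.5 ± 3.01 TPM (SD, n = 3) for Ibsp, Spp1 and Dmp1 in the controls and 332 ± 128, 95.6 ± 54.5 and 4.28 ± 1.79 TPM in mutants.

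The balance among the SIBLING transcripts differed between the groups. Summed over the 7 genes, the level was 731, 747 and 771 RPKM in the controls and 376, 137 and 371 RPKM in the mutants. Of this sum, Ibsp made up 61.1, 57.4 and 60.7% in the controls and 79.6, 86.8 and 78.7% in the mutants. Spp1 made up 36.3, 40.5 and 37.0% in the controls and 19.3, 12.1 and 20.2% in the mutants. Dmp1 went from between 1.98 and 2.56% to between 0.999 and 1.04%. The share of Ibsp was therefore higher, and those of Spp1 and Dmp1 lower, in every mutant than in any control.

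A ratio taken within a library does not depend on how the library was scaled. The log2 ratio of Spp1 to Ibsp (CPM) was -1.08, -0.83 and -1.04 in the controls and -2.38, -3.18 and -2.29 in mutants. That of Dmp1 to Ibsp was -4.16, -4.44 and -4.30 in the controls and -5.84, -6.02 and -5.88 in the mutants. The first ratio differed by -1.63, or 3.10-fold, and the second by -1.62, or 3.06-fold, and neither overlapped between the groups. Each had an exact permutation p = 0.1, two-sided, the smallest that 3 against 3 allows, and 0.157 after Benjamini-Hochberg adjustment over 11 ratios, so no ratio could reach 0.05. The ratios to Sp7, given below as an alternative, were not part of that adjustment. Both differences kept their direction with each library left out, between -1.79 and -1.35 for Spp1 to Ibsp and between -1.69 and -1.54 for Dmp1 to Ibsp, and in RSEM TPM (-1.57 and -1.66). The ratio of Spp1 to Dmp1, in contrast, was 3.08, 3.61 and 3.26 in the controls and 3.47, 2.84 and 3.59 in the mutants, a difference of -0.01 (exact permutation p = 0.9). The ratio of Mepe to Ibsp was higher by 1.85 in mutants (exact permutation p = 0.1), on counts of at most 28.

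Measured against Col1a1, Spp1 and Dmp1 were lower in mutants and Ibsp was not separable. The log2 ratio of Spp1 to Col1a1 was -4.61, -4.90 and -4.38 in the controls and -5.98, -8.16 and -5.86 in mutants, a difference of -2.03 (exact permutation p = 0.1). Dmp1 to Col1a1 differed by -2.02 (exact permutation p = 0.1), also without overlap. Without mutant E433 these differences were -1.29 and -1.5. Ibsp to Col1a1 was -3.53, -4.07 and -3.34 in the controls and -3.61, -4.98 and -3.56 in the mutants, a difference of -0.40 (exact permutation p = 0.5), and it turned to 0.062 without mutant E433. With Runx2, the master regulator of osteoblasts, as the denominator, the differences were -1.54 for Spp1, -1.52 for Dmp1 (exact permutation p = 0.1 each) and 0.09 for Ibsp (exact permutation p = 1). With Sp7 as the denominator they were -1.31 for Spp1, -1.3 for Dmp1 (exact permutation p = 0.1 each) and 0.32 for Ibsp (exact permutation p = 0.3).

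**Figure D2:**
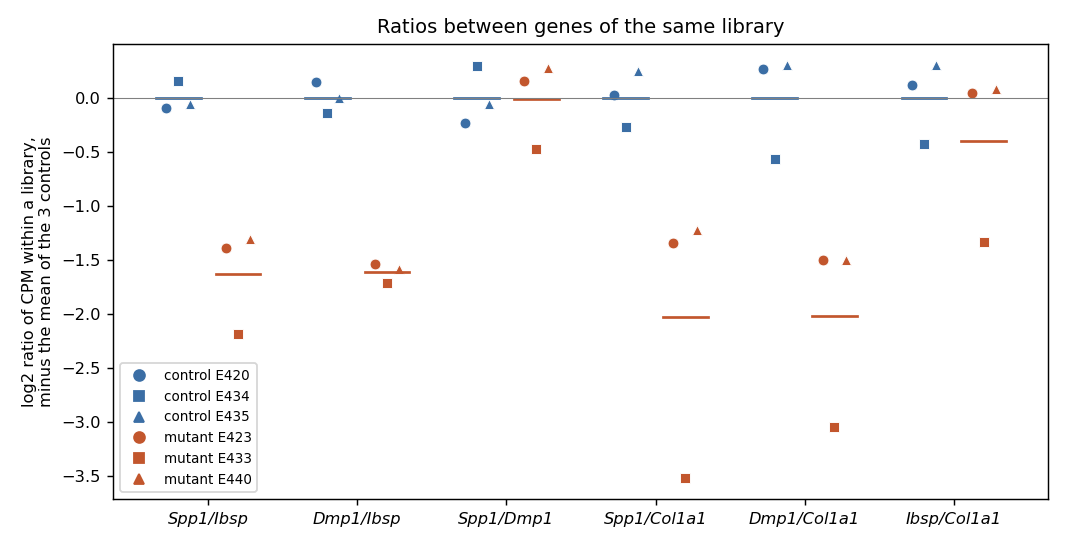
Log2 ratios between genes of the same library, each less the mean of the 3 controls, with one symbol per embryo and lines at the group means (controls in blue, with a grey line at 0, and mutants in orange). Spp1 and Dmp1 relative to Ibsp lie lower in all 3 mutants by 1.63 and 1.62 on average, while Spp1 relative to Dmp1 and Ibsp relative to Col1a1 overlap between the groups.

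The 5 SIBLING genes lie in one row on chromosome 5, all on the plus strand, in the order Dspp, Dmp1, Ibsp, Mepe and Spp1, over 270.3 kb. Their protein-coding neighbours were not called. Within 0.5 Mb of the starts of the 7 genes there were 27 other protein-coding genes, of which 18 passed the count filter. Neither edgeR nor DESeq2 called any of the 18, 3 of which had no adjusted p in DESeq2, and 0 had an unadjusted p under 0.05 in edgeR, where 10.6% of all genes did. Over all genes, edgeR called 0.0301% lower and 0.0338% higher, and DESeq2 called 0.459% lower and 1.33% higher. The absence of calls among 18 genes therefore does not set apart these neighbours. Their median log2 fold change was 0.01, as over all genes tested, with 9 of 18 below 0 (48.8% of all genes). The values ran from -2.72 (Amtn) to 1.96 (Hsd17b13), both genes with low counts. No neighbour had every mutant below or every mutant above the controls, as 8.21 and 6.81% of all genes did. Sparcl1, a matrix protein gene of the same extended family at the other end of the row, had a log2 fold change of -0.05 (adjusted p = 0.936). Pkd2, a polycystin channel gene directly beyond Spp1, had 129.6 ± 21.6 CPM in control libraries and 107 ± 38.2 CPM in mutant libraries (SD, n = 3) and a log2 fold change of -0.28 (adjusted p = 0.726). Amtn, an enamel gene beside Ambn, had 0, 11 and 5 counts in control libraries and 0, 2 and 0 counts in mutant libraries (adjusted p = 0.556), too few for a fold change.

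**Figure D3:**
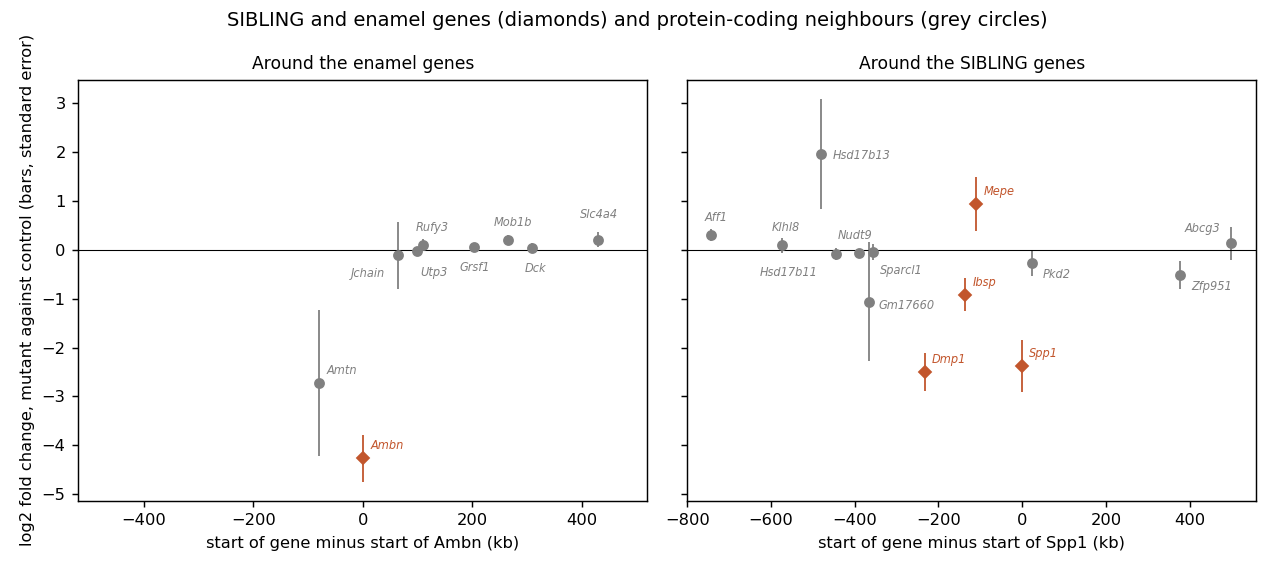
Log2 fold change with its standard error (edgeR) against distance in kb from the start of Ambn (left) or Spp1 (right), for the tested SIBLING and enamel genes (diamonds) and the tested protein-coding neighbours (grey circles). Dmp1 and Spp1 stand at -2.51 and -2.38, and the neighbours of both panels run from -2.72 (Amtn) to 1.96 (Hsd17b13), with a median of 0.01. The fitted value of Ambn is drawn although its mutant libraries are at or under the floor of 3 counts.

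Promoter sequences are shown for the SIBLING genes of the row that were tested, whose fitted changes ran from -2.51 (Dmp1) to 0.94 (Mepe) within one row. They are the 250 bases before the RefSeq start in GRCm38.p6, plus strand, 5′ to 3′. RefSeq windows were matched for 6 of the 7 genes, and Dspp had none. Capitals mark the Runx core (ACCACA, or TGTGGT on the other strand) and the CCAAT box (CCAAT, or ATTGG on the other strand). The windows are chr5:104434861-104435110 for Spp1, chr5:104202367-104202616 for Dmp1, chr5:104299037-104299286 for Ibsp and chr5:104325079-104325328 for Mepe. The start of Ibsp in RefSeq lies 116 bases downstream of the GENCODE start used for counting.
Spp1: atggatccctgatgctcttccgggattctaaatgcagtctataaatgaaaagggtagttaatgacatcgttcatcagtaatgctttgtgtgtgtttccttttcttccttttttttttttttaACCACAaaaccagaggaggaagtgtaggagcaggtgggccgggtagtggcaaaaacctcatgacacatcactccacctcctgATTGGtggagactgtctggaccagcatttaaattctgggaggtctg
Dmp1: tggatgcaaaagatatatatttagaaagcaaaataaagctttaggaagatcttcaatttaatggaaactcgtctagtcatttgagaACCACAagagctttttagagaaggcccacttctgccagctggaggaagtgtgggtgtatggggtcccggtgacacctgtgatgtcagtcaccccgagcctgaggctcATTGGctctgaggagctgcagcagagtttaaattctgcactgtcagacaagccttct
Ibsp: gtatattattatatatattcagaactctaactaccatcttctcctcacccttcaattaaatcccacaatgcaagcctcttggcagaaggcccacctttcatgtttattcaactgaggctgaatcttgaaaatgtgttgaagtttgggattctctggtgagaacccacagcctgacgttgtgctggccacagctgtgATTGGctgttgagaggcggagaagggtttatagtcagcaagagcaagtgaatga
Mepe: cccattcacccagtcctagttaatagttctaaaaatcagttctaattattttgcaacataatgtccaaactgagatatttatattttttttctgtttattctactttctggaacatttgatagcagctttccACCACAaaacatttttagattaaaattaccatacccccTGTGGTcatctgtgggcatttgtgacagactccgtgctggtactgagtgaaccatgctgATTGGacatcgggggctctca

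The motifs were chosen after the sequences had been seen, and a match is a description of letters, not of binding. A CCAAT box lay in all 6 windows, and within the last 100 bases before the start in all 6, on the minus strand each time, at 46, 57, 54 and 21 bases before the start of Spp1, Dmp1, Ibsp and Mepe. Of all 32851 RefSeq windows, 33.8% held a CCAAT box and 18.9% held one in the last 100 bases. The Runx core lay in 3 of 6 windows, those of Spp1 (128 bases before the start), Dmp1 (164) and Mepe (118 and 80), against 14% of all windows. The forkhead core (TAAACA or TGTTTA) lay in 2 of 6, those of Ibsp (150) and Mepe (158), against 12%. TTTAAA lay in 3 of 6 (Spp1, Dmp1 and Ambn), against 12.1%, TAATTA in 1 of 6 (Mepe), against 4.84%, and the AP-1 motif TGANTCA in 0 of 6, against 6.75%.

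The genes whose level followed a SIBLING gene most closely over the 6 libraries were picked by Pearson correlation of log2 CPM among 16566 genes with a mean of at least 1 CPM. The points share libraries and depth, and the highest of so many values is a description only. Nearest to Spp1 were Mmp13 (r = 0.999), Entpd3 (0.998) and Gm4788 (0.998). Nearest to Dmp1 were Ccl27a (0.999), Gpnmb (0.998), a glycoprotein of osteoclasts and osteoblasts, and Pacsin1 (0.997). The genes nearest to Ibsp were Dlx5 (r = 0.9995), a homeodomain regulator of osteoblasts, Enpp6 (0.999) and Socs2 (0.996). Dlx5 was, like Ibsp, not called, with -0.66 on the log2 scale (standard error 0.244, adjusted p = 0.437), beside the Ibsp value of -0.92.

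Among the factors that act on SIBLING transcription, 7 of 10 had all mutants below all controls, and 0 of 10 were called by edgeR (7 had an unadjusted p under 0.05) and 5 by DESeq2, all lower. Over all genes, 8.21% were separated downward, 4.7% were lower at an unadjusted p under 0.05 and 0.459% were called lower by DESeq2. The median log2 fold change of the 10 was -0.90, beside 0.01 over all genes. Among them were Dlx6, a homeodomain factor (-1.88, standard error 0.359, adjusted p = 0.235), Vdr, the vitamin D receptor (-1.44), and Sp7 (-1.32, adjusted p = 0.146). Runx2 had 34.1, 44.6 and 30.9 CPM in control libraries and 14.7, 19.4 and 15.9 CPM in mutant libraries. Its log2 fold change was -1.13 (standard error 0.176, adjusted p = 0.155 by edgeR's quasi-likelihood test). Without mutant E433, edgeR called 5 of the 10 lower, among them Runx2, Sp7, Dlx6 and Vdr, against 1.37% of all genes.

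Of the enzymes that cut, phosphorylate or cross-link SIBLING proteins, 10 of 12 were tested and 1 was called, lower (0.0301% of all genes were). Phex, the membrane peptidase that degrades the acidic peptides of these proteins and is lost in X-linked hypophosphatemia, fell from 41.2, 39.9 and 36.3 CPM in controls to 14.0, 10.8 and 11.9 CPM in mutant libraries. The log2 fold change of Phex was -1.68 (standard error 0.124, adjusted p = 0.0775 by edgeR's quasi-likelihood test), and it was called without E433 or E434 and with the covariate. The call was lost without E420, E435, E423 or E440 and with the close libraries summed (-1.73, adjusted p = 0.9998). Fam20c, the kinase that phosphorylates SIBLING proteins in the secretory pathway, had groups that overlapped (-0.17, adjusted p = 0.756). Mmp9, a gelatinase of osteoclasts, had a log2 fold change of -1.81 (adjusted p = 0.421), with 286, 316 and 275 CPM in control libraries and 120.0, 18.9 and 112 CPM in mutant libraries. Tgm2, a transglutaminase that cross-links osteopontin, had 0.82 (adjusted p = 0.481), and Mmp3, a stromelysin, had 2, 0 and 1 counts in control libraries and 8, 7 and 12 counts in mutant libraries (adjusted p = 0.366). The median over the 10 was -0.24. Without E433, edgeR called 2 of the 10 lower (Phex and Mmp9) and 2 higher (Tgm2 and Mmp3), where 1.37% of all genes were called lower and 2.84% higher.

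The receptors of SIBLING proteins had small fitted changes. Of 10 integrin and CD44 genes tested, edgeR called 0 (3 had an unadjusted p under 0.05, all lower) and DESeq2 called 0, with a median log2 fold change of -0.20. Over all genes, 0.0301% were called lower by edgeR and 0.459% by DESeq2, so 0 calls among 10 genes lie near those shares. At an unadjusted p under 0.05, 4.7% of all genes were lower. Of the 10, 3 were lower in every mutant, where 8.21% of all genes were. Itgav, the alpha chain of the vitronectin receptor that binds osteopontin and bone sialoprotein, was lower in every mutant (-0.66, standard error 0.151, adjusted p = 0.310), as were its partners Itgb3 (-0.40) and Itgb5 (-0.27). Cd44, another osteopontin receptor, had a log2 fold change of -0.02 (adjusted p = 0.955).

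Among 9 genes of mineral deposition and phosphate handling, edgeR called 1 (Sgms2) and DESeq2 called 2 (Sgms2 and Alpl), all lower. Over all genes, 0.0301% were called lower by edgeR and 0.459% by DESeq2. Of the 9, 3 were lower at an unadjusted p under 0.05 (4.7% of all genes) and 4 were lower in every mutant (8.21%). Sgms2, a sphingomyelin synthase of osteoblasts, fell from between 143 and 188 CPM in controls to between 55.4 and 66.4 CPM in mutant libraries, a log2 change of -1.39 (standard error 0.133, adjusted p = 0.0775), a call lost under the same alternatives as that of Phex. Alpl, the phosphatase that frees phosphate from pyrophosphate, had 89.7, 111 and 89.3 CPM in control libraries and 36.7, 18.4 and 35.5 CPM in mutant libraries (log2 fold change -1.68, standard error 0.269, adjusted p = 0.160). Without E433, Alpl was called (-1.42, adjusted p = 0.00669). Phospho1, a phosphatase of matrix vesicles, had -0.85 (adjusted p = 0.433) and Enpp1, which makes pyrophosphate, had -0.89 with groups that overlapped (adjusted p = 0.654). The median of the 9 was -0.20. Other secretory calcium-binding phosphoprotein genes, of which 9 of 10 were matched and 4 tested, gave 0 calls in edgeR (1 unadjusted p under 0.05) and in DESeq2. With 4 genes, 0 calls cannot be told from the shares of all genes given above. Sparc (osteonectin), the one at a high level in bone, was lower in every mutant, with -0.49 (adjusted p = 0.435).

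Most osteoblast markers and all osteoclast markers listed were also lower in every mutant library, though few were called. The counts stand against 8.21% of all genes lower in every mutant, 4.7% lower at an unadjusted p under 0.05, and 0.0301% called lower by edgeR and 0.459% by DESeq2. Of 9 osteoblast markers 8 were lower in every mutant (median log2 fold change -1.0, 0 called by edgeR with 8 at an unadjusted p under 0.05, and 4 called by DESeq2). The summed level of the 9 was between 21620 and 31760 CPM in control libraries and between 15834 and 17606 CPM in mutant libraries. Most of that sum was Col1a1, Col1a2 and Sparc, with control means of 11791, 9256 and 4154 CPM, so it says little of the other markers. All 10 osteoclast markers were lower in every mutant (median -1.0), with 1 called, Ctsk, the collagen-degrading cathepsin (-1.26, adjusted p = 0.0999), and a summed level of between 695 and 712 CPM in control libraries and of 368, 186 and 362 CPM in mutant libraries. Of 7 hypertrophic chondrocyte markers 4 were lower in every mutant (median -1.51, 0 called by edgeR, 4 at an unadjusted p under 0.05, 2 called by DESeq2), and without control E434 the median was -0.31. Of the 12 early chondrocyte markers none was separated between the groups (0 called by edgeR and DESeq2 and 0 at an unadjusted p under 0.05). All 12 had a log2 fold change below 0, as 48.8% of all genes did, with a median of -1.29. That median was 1.11 without control E434 and -3.76 without mutant E433. Several of the 12, Col2a1 among them, had no adjusted p in DESeq2 and could not be called by it. Of 8 macrophage markers 2 were lower in every mutant and 1, Mrc1, was higher in every mutant (between 61.9 and 67.8 CPM in control libraries and between 69.5 and 71.0 CPM in mutant libraries), 0 were called by either tool (3 at an unadjusted p under 0.05), and their sum was between 303 and 316 CPM in control libraries and between 242 and 288 CPM in mutant libraries. Without E433, edgeR called 4 osteoblast, 2 osteoclast and 2 hypertrophic chondrocyte markers, all lower (1.37% of all genes were), and the osteoclast median was -0.55. Without E420, E435, E423 or E440, or with the close libraries summed, edgeR called no gene of any list, as it called 0 of all genes. Several lists share genes (Acp5, Mmp9, Alpl, Sp7, Runx2, Itgb3, Sparc, Amelx, Amtn, Odam, Mmp20 and Klk4), so their counts are not independent. The part of any cell type in the SIBLING results was not tested.

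**Figure D4:**
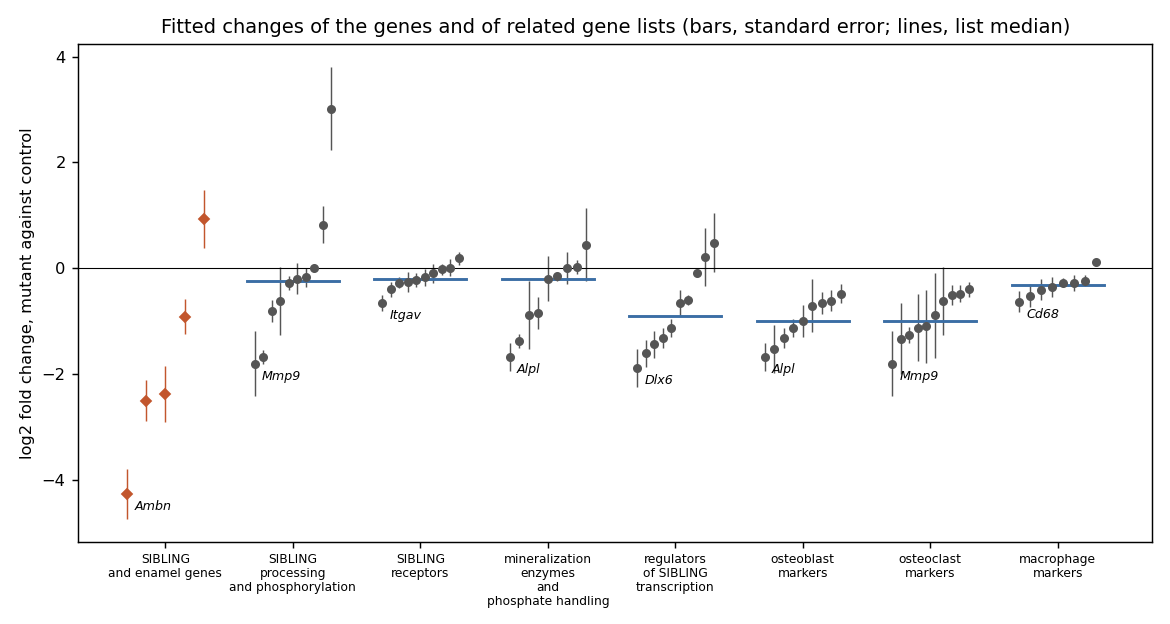
Log2 fold change of each tested gene (edgeR, bars give the standard error), for the SIBLING and enamel genes (diamonds) and for lists of related genes and cell type markers (circles), sorted within each list, with a blue line at the list's median and the name of its lowest gene. The receptor, processing, mineralization and macrophage lists have medians of -0.20, -0.24, -0.20 and -0.31. Regulators and osteoblast and osteoclast markers have medians of -0.90, -1.0 and -1.0.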

How the data were processed

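Expression was measured by RNA-Seq in rib cages of 6 embryos (3 control and 3 mutant), with groups taken from the sample labels. Per the submitters' processing notes, the study's methods and the file headers, the authors made stranded mRNA libraries, aligned paired reads to GRCm38 with HISAT2 2.1.0 and deposited raw counts per gene from featureCounts 1.6.0 on GENCODE exons, with primary alignments only, the 2 ends of a fragment counted separately and no use of strand, so that overlapping and antisense genes cannot be told apart. The authors also deposited RSEM 1.2.31 expected counts with TPM and FPKM values per gene, from STAR 2.7.6 alignments. FPKM values were not used. A further pair of deposited tables holds the authors' DESeq2 1.26.0 fold changes and p-values, and these tables, with 12 columns of per-sample values, were not used.

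Genes were kept where their counts reached 10 in sum (26596 genes) and tested with edgeR 4.0.16 (TMM, glmQLFit and glmQLFTest, R 4.3.3). A call needed a Benjamini-Hochberg adjusted p-value below 0.1 and an absolute log2 fold change of 1 or more. Log2 CPM used a prior count of 2. Within-library ratios were compared by exact permutation in SciPy 1.17.1. RPKM was CPM per kilobase of exon. Symbols were matched for 55227 of 55487 gene IDs from a GENCODE release on the same build, without version numbers. Alternatives were DESeq2 1.42.0, other normalization and filters, RSEM expected counts rounded to whole numbers, the mean log2 CPM of early chondrocyte markers as a covariate, Sp7 in place of Col1a1, each library left out and, added after the data were seen, the close libraries summed. The steps were also run on simulated counts with the same spread for every gene and known changes only in genes with far more counts than Ambn. The simulation held no close pairs or cartilage-rich embryos, so it does not show how the tests behave with them. Intervals and floors cover counting error only, since reads carry no molecular identifiers, and p-values measure the spread between these embryos.

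The 7 genes and all lists were chosen with earlier results of these data known. Values were named for the 7 genes, the targeted genes, their protein-coding neighbours within 0.5 Mb, up to 4 genes of each list with the largest change and any a result turned on, and the 3 genes most correlated with each of Spp1, Dmp1 and Ibsp. Fam20c, Cd44, Acp5, Mmp13, the ratios other than those to Col1a1, and the motifs were chosen after values or sequences had been seen. Values of 1 gene of the lists are not reported here.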

Additional observations from a re-analysis of the deposited data

How the results depend on the processing

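The fitted log2 fold changes of Spp1, Dmp1, Ibsp, Mepe and Ambn kept their sign under every alternative run and with each of the 6 libraries left out. The count of these genes called was 1 (Ambn) as reported, 3 with DESeq2's Wald test or the early chondrocyte covariate, 2 without the count filter (Dmp1 at an adjusted p = 0.0878 and Ambn), 0 with RSEM expected counts (Ambn at an adjusted p = 0.176), 0 with the close libraries summed and between 0 and 3 with a library left out, the 3 being without mutant E433. Over all genes, the reported 8 lower and 9 higher became 122 and 355 with DESeq2, 15 and 22 without a filter, 5 and 5 with RSEM, 71 and 194 with the covariate, and 0 and 0 with the close libraries summed (769 at an unadjusted p under 0.05). With a library left out they ran from 0 to 353 lower and from 0 to 734 higher, with 353 and 734 without E433 and 0 without E420, E435, E423 or E440 (at least 1450 at an unadjusted p under 0.05). The difference of Ibsp relative to Col1a1 (-0.40) reversed to 0.32 with Sp7 as the denominator and to 0.062 without E433, and ran from -0.65 to 0.062 with a library left out. The ratio of Spp1 to Ibsp in controls was 0.636 in RPKM and 0.771 in RSEM TPM. No paired analysis was possible because the embryo numbers are not shared between the groups and no litter is given. Where no cause is named, the cause was not tested. Depth limits Dspp, Enam, Mepe and Ambn, all at under 40 counts in every library.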
